A study of Zea mays with 137 samples.

Results

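The short arm of chromosome 9 (9S) was followed gene by gene in maize leaves that carried 1, 2 or 3 copies of it. The genes taken were those on chromosome 9 of the W22 line with a start below 56.1 Mb. They also had a mean of at least 1 FPKM (fragments per kilobase of gene, scaled for library size) over the 9 deposited diploid controls. These were 440 of the 1032 genes listed on the arm, and 440 of the 18757 genes of the series at that level. Of the remaining 9S genes, 267 were at 0 in every diploid control and 325 lay above 0 and below 1 FPKM.

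The study sequenced RNA of 45-d-old leaves from aneuploid combinations of pairs of chromosome arms, each pair with diploid controls of its own. The deposited tables hold 33 of these combinations. The arms were varied with B-A translocations in the W22 background, and 9S varied in 1 of the 9 tables, where TB-9Sd was combined with TB-6Lc for the long arm of chromosome 6 (6L). That table held trisomy 6L+trisomy 9S (4 plants), monosomy 6L+trisomy 9S (2 plants), trisomy 6L+monosomy 9S (5 plants), monosomy 6L+monosomy 9S (4 plants) and the diploid controls (2 plants, both listed as euploid plants with a translocation). The other 8 tables, 1 of which varied the long arm of the same chromosome (9L), held 29 combinations with 2 copies of 9S. Among these were trisomy 1L+tetrasomy 5S, tetrasomy 3L+trisomy 5L and trisomy 4L+tetrasomy 6L, each from 1 plant. Each group was deposited as 1 mean per gene, so no value per plant, no read count and no depth stands behind a single value here, and whether every listed plant entered its mean is not recorded. The leaf RNA was sequenced in bulk, and fewer cells of a type and less RNA per cell cannot be told apart.

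In a B-A translocation an arm of a regular chromosome is joined to the centromere of the supernumerary B chromosome, whose copies often fail to separate at the last division in pollen. Sperm then carry an extra copy of the arm or none, and the progeny are trisomic or monosomic for it. A gene whose mRNA follows the number of copies is said to show a dosage effect, and a gene whose mRNA stays at the diploid level is said to be dosage compensated, while genes elsewhere in the genome can be modulated in *trans*, often in the direction opposite to the dose. 9S is known for the classical colored aleurone, shrunken, bronze and waxy kernel loci, and much of it shares an origin with 6L in the ancient polyploidy of maize. The deposited tables give W22 identifiers without gene names, and the few names that the study's primer list adds do not include these kernel loci, so none of them is given a value.

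The 9S genes as a whole followed the number of copies. Their summed level was 2.80% of all FPKM in trisomy 6L+trisomy 9S and 2.71% in monosomy 6L+trisomy 9S. It was 0.976% in trisomy 6L+monosomy 9S and 1.06% in monosomy 6L+monosomy 9S, against 2.00% in the diploid controls of the pair. The other 8 diploid groups lay between 1.89% and 2.07%, so both trisomies were above and both monosomies below all 9 diploid groups. The sums were 1.40, 1.30, 0.478 and 0.521 times the diploid sum in the same order of combinations. Without the most highly expressed 9S gene these ratios were 1.36 and 1.32 in the trisomies and no higher than 0.547 in the monosomies.

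Gene by gene, the deposited ratios were shifted against the rest of the genome. The median ratio of genes on chromosomes other than 6 and 9, taken here as the *trans* median, was 0.918 in trisomy 6L+trisomy 9S, 0.934 in monosomy 6L+trisomy 9S, 1.11 in trisomy 6L+monosomy 9S and 1.16 in monosomy 6L+monosomy 9S. The ratios and slopes of the 9S genes are therefore given as deposited and after division by this median. The cause of the shift was not tested, and a change of the whole library scale and a change of most genes cannot be told apart in relative values. The study also estimated the size of the transcriptome by ddPCR (droplet digital PCR). It reported a decrease for every type of 6L+9S combination. That measure is per genome and was not applied here, so the values of the 9S genes are relative ones.

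In trisomy 6L+trisomy 9S the 9S genes had a median ratio of 1.34 to the diploid (quartiles 1.17 and 1.55 over 438 genes with a diploid value above 0), or 1.46 after division by the *trans* median. In monosomy 6L+trisomy 9S the median was 1.30 (quartiles 1.03 and 1.74), or 1.39 after division. The 9S genes were thus nearer to the 3-copy dosage than to the diploid level in both trisomies, with a wider spread in the combination of 2 plants. In trisomy 6L+monosomy 9S the median was 0.564 (quartiles 0.443 and 0.682), or 0.509 after division. In monosomy 6L+monosomy 9S it was 0.593 (quartiles 0.477 and 0.731), or 0.510 after division. As a share of full dosage on the log2 scale, the deposited medians came to 71.9% and 64.0% in the trisomies. In the monosomies they came to 82.7% and 75.3%. The divided medians came to 93.0% and 80.8% in the trisomies and to 97.4% and 97.2% in the monosomies. All 4 ratios share the same diploid mean of 2 plants, and the spread between plants is not in the tables, so these shares were not tested against each other.

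**Figure D1:**
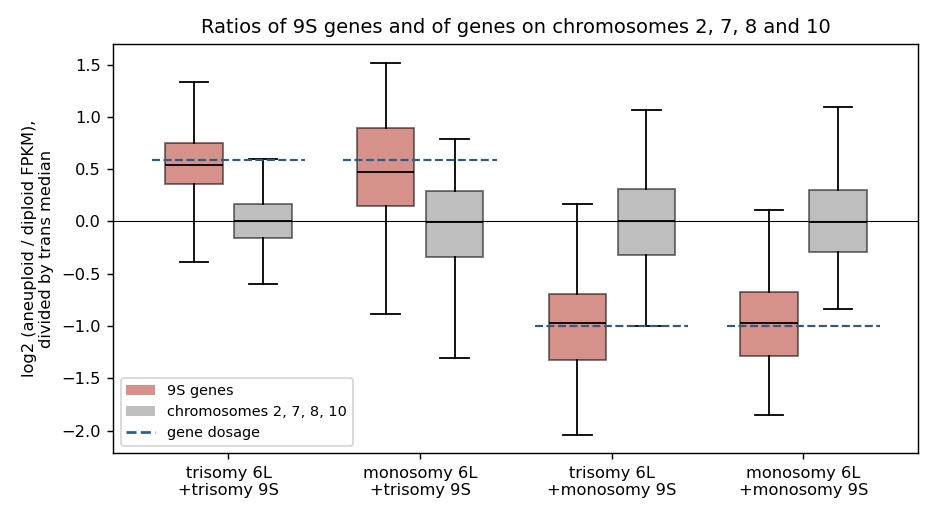
Log2 ratio of the aneuploid to the diploid mean, divided by the *trans* median, for the 9S genes (red) and for genes of chromosomes 2, 7, 8 and 10 (grey) in the 4 combinations. Boxes span the quartiles with the median as a line, whiskers reach the 5th and 95th percentiles, and dashed lines mark the ratio of gene dosage (ratios of 0 are not drawn). The 9S medians lie close to the dashed lines, while the grey boxes are centred near 0.

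Counted by size, 308 of 438 9S genes had a deposited ratio of at least 1.2 in trisomy 6L+trisomy 9S, where 15.3% of all genes did. In monosomy 6L+trisomy 9S there were 250, against 20.3% of all genes. A ratio of at most 0.8 was found for 374 9S genes in trisomy 6L+monosomy 9S, against 19.4% of all genes, and for 356 in monosomy 6L+monosomy 9S, against 18.4% of all genes. Changes against the dose were few. Despite the extra copy, 32 and 62 9S genes had a ratio of at most 0.8 in the trisomies with 3 and with 1 copies of 6L, against 19.5% and 35.6% of all genes. Despite the missing copy, 24 9S genes had a ratio of at least 1.2 in trisomy 6L+monosomy 9S and 24 in monosomy 6L+monosomy 9S, against 41.2% and 42.3% of all genes.

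After division by the *trans* median the counts of 9S genes that followed the dose were 348 and 291 in the trisomies with 3 and with 1 copies of 6L, against 21.8% and 26.5% of all genes. In the monosomies with 3 and with 1 copies of 6L they were 386 and 388, against 25.3% and 28.7%. The counts against the dose were then 28 and 52 in these trisomies, against 11.7% and 30.1% of all genes. They were 18 and 18 in these monosomies, against 30.6% and 25.1%.

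Both trisomic means lay above both monosomic means in 370 of the 440 9S genes, against 12.9% of all genes. The diploid mean also lay between them in 284 of these, against 4.08% of all genes. The reverse order, with both trisomic means below both monosomic means, was found for 18 of the 9S genes and for 45% of all genes. The 9S genes were also set against their own behaviour where the arm was not varied. In the divided values both monosomic ratios were below all 29 ratios of the unvaried combinations in 217 of 437 genes, against 2.51% of all genes. Both trisomic ratios were above all 29 in 83 genes, against 0.988%, and 60 genes met both conditions, against 0.333%.

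To give each gene an error, the log2(FPKM + 0.1) of all 42 group means was fitted with limma on the log2 number of copies of the 9 arms, with a term for each table. A slope of 1 on 9S copies is then a full dosage effect and a slope of 0 no response. As deposited, the 9S genes had a median slope of 0.75 (quartiles 0.46 and 0.99, median SE 0.17), against a median of -0.16 over all 18757 genes. The slope was above 0 with a limma adjusted p below 0.05 in 298 of the 440, where 2.83% of all genes were called higher, and below 0 in 2, where 16% of all genes were called lower. After division by the *trans* median the median slope of the 9S genes was 0.93 (quartiles 0.65 and 1.16), 322 were called higher and 0 lower, and 5.84% and 4.54% of all genes were called. At an unadjusted limma p below 0.05, 356 of the 440 divided slopes were higher and 1 was lower, against 15.3% and 13.5% of all genes. The counts rest on single groups to some degree, since without monosomy 6L+monosomy 9S the fit called 192 higher and 0 lower as deposited, against 1.03% and 0.144% of all genes.

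The individual 9S genes were spread widely around the dosage line. In the divided values the 95% interval of the slope held 1 in 290 genes, lay wholly below 1 in 97 and wholly above 1 in 53. It held 0 in 83 genes, and in 46 genes it lay between 0 and 1 without touching either. The point estimates ran between -1.98 and 2.65, with 30 of them below 0. The slopes had an SD of 0.53 around their mean, against 0.48 in the 6694 genes of chromosomes 2, 7, 8 and 10, of which no arm was varied in any table. The interquartile range at like levels was wider in the 9S genes where expression was low (0.82 against 0.54 at the levels of the 147 lowest 9S genes), and closer at middle levels (0.46 against 0.40) and high levels (0.44 against 0.46). The share of 9S genes whose interval excluded a slope of 1 was 34.1%, against 28.0% of those other genes whose interval excluded a slope of 0. In the deposited values these shares were 44.8% and 34.3%. There the interval of the 9S genes held 1 in 243, lay wholly below 1 in 171 and wholly above 1 in 26. It held 0 in 107 of them and lay between 0 and 1 in 96.

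The spread was shared in large part by separate sets of plants. The means with 3 and with 1 copy of 9S can be compared directly within trisomy 6L and within monosomy 6L. These contrasts share no plants and, as deposited, use no diploid value. The *trans* median subtracted from them rests on ratios to the diploid. Among the 9S genes the log2 ratio of 3 copies to 1 copy, minus its *trans* median, had a median of 1.55 in trisomy 6L (quartiles 1.10 and 1.89, n = 439 genes) and of 1.51 in monosomy 6L (quartiles 0.96 and 2.00, n = 437 genes). A full dosage effect is 1.58 on this scale, and the deposited medians were 1.28 and 1.19. The ratio was above 0 in both backgrounds in 391 of 437 genes. Across these genes the contrasts had a Pearson r of 0.73 and a Spearman rho of 0.71, and across 6645 genes of chromosomes 2, 7, 8 and 10 the r was 0.68 and the rho 0.69. Genes are not independent replicates, and all plants of 1 combination share 1 mean, so these are descriptions.

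At the low end, 31 of the 437 9S genes (7.09%) had a ratio of 3 copies to 1 copy below 0.5 on the log2 scale in both backgrounds, and so responded little or inversely in either set of plants. At the high end, 36 genes (8.24%) were above 2.2 in both, beyond the full dosage effect. On chromosomes 2, 7, 8 and 10 the shares were 71.9% and 0.0451%. The contrast was higher by more than 1 in trisomy 6L than in monosomy 6L for 36 of the 9S genes (8.24%) and lower by more than 1 for 16 (3.66%), and the same shares on chromosomes 2, 7, 8 and 10 were 8.35% and 2.57%.

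**Figure D2:**
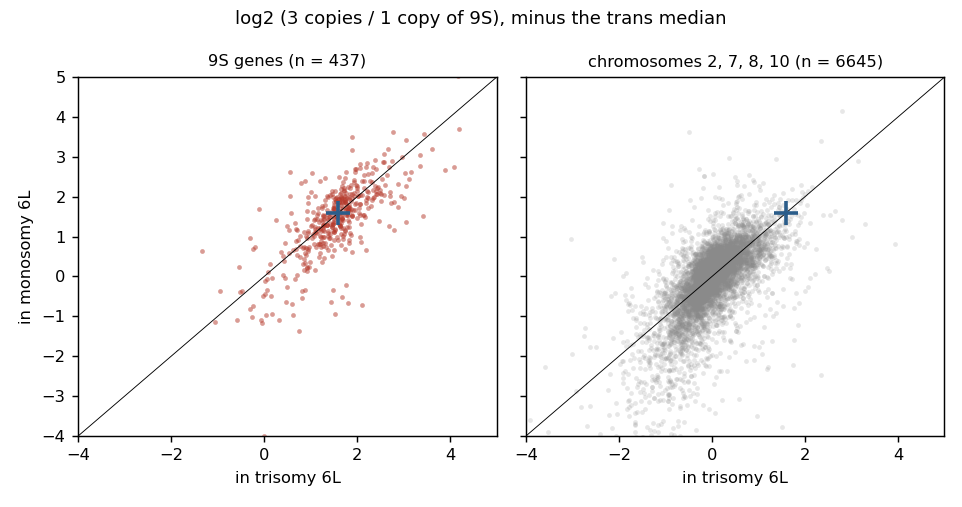
Log2 ratio of the mean with 3 copies of 9S to the mean with 1 copy, minus the *trans* median, within trisomy 6L (horizontal) and within monosomy 6L (vertical). Each point is a gene, the line is equality, the blue cross marks a full dosage effect of 1.58 in both, and 79 genes with a value outside the axes are not shown, 4 of them on 9S. The 9S cloud (left) is centred near the cross and the cloud of chromosomes 2, 7, 8 and 10 (right) near 0, and both stretch along the line.

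Whether the response to 9S copies depended on the dose of the homoeologous arm was asked with a product term of 9S and 6L copies. No 9S gene had a limma adjusted p below 0.05 for this term, and the same count over all genes was 0, or 0% in either direction. At an unadjusted p below 0.05 there were 6 of the 440 9S genes (1.36%), against 1.52% of all genes. The median of the term was 0.04 in the 9S genes with a median SE of 0.21, so only large differences between the backgrounds could have been seen gene by gene.

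The response of the 9S genes to 6L copies was close to that of genes on chromosomes with no varied arm. The median slope of the 9S genes on 6L copies was -0.04 (quartiles -0.17 and 0.12), and 43 were called higher and 76 lower with limma, against 14.5% and 17.2% of all genes, which include the genes of 6L. On chromosomes 2, 7, 8 and 10 the percentages were 9.49% and 18.2%, close to the 9.77% and 17.3% of the 9S genes. After division by the *trans* median 54 of the 9S genes were called higher and 55 lower, against 17.9% and 12.5% of all genes. Within the 5 groups of 6L+9S alone, where 2 residual degrees of freedom remain, 0 were called higher and 1 lower with limma, against 4.71% and 0.768% of all genes. At an unadjusted p below 0.05 the numbers were 26 and 43, against 12% and 8.99% of all genes.

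The response was of like size along the arm. The medians of the divided slope in windows of 10 Mb from the tip were 0.99 (88 genes), 0.87 (141 genes), 0.86 (116 genes), 1.10 (41 genes), 0.92 (43 genes) and 1.06 (11 genes). The window from 30 to 40 Mb had the highest share of genes called higher as deposited, 36 of 41 (87.8%), while the other windows lay between 63.6% and 69.8%, and its genes also had the smallest median SE (0.14). The slope of a gene had a Spearman rho of 0.00 with its position and of 0.04 with the slope of the next 9S gene on the chromosome (439 adjacent pairs), against 0.09 on chromosomes 2, 7, 8 and 10. The genes at the tip, the first of which starts at 55515, therefore had slopes like those of the genes next to the limit.

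The slopes were read on both sides of the position limit. The last 5 of the 440 genes before it start between 53294775 and 55787897, and their divided slopes were 1.07, 0.42, 1.05, 1.07 and 0.92. The first 5 genes beyond it at the same minimum level start between 57184712 and 58303571, and had slopes of 1.03 (SE 0.58), 0.12, -0.08, -0.06 and -0.25. The first of these, at a mean of 2.03 FPKM, is the only one near 1, and its interval ran between -0.16 and 2.23. At the limit on the level, the lowest of the 440 genes had means of 1.03 and 1.08 FPKM, and the 9S genes just below it had 0.991 and 0.938 FPKM.

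**Figure D3:**
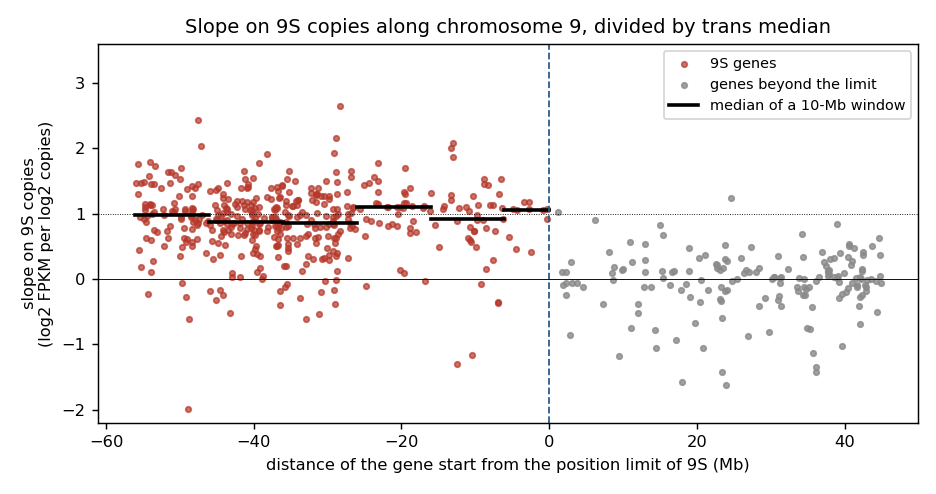
Slope on 9S copies, divided by the *trans* median, of 610 genes of chromosome 9 at a mean diploid level of at least 1 FPKM, against the distance of the gene start from the position limit (dashed line, up to 45 Mb beyond it). Red points are the 9S genes, grey points 170 genes beyond the limit, black bars the medians of the windows of 10 Mb, and 3 points outside the vertical axis are not shown. The red points gather around 1, and the grey points around 0.

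The level and the length of a gene moved with the precision of its slope more than with its size. The 9S genes were put into 3 classes of like size by their mean in the 8 other diploid groups, and the median divided slope was 0.86 in the lowest class (1.02 to 5.14 FPKM), 0.93 in the middle class and 0.97 in the highest class (17.7 to 852 FPKM). The interquartile range of the slopes was 0.82, 0.46 and 0.44 in the same order, and the median SE 0.22, 0.15 and 0.15. By the length of the locus, the median slopes were 0.89, 0.93 and 0.95 from the shortest to the longest class, and the interquartile ranges 0.78, 0.53 and 0.36. The share called higher as deposited was 47.6% in the shortest class and 84.4% in the longest, where the median SE was 0.26 and 0.13. A Spearman rho over the 440 genes was 0.14 for the slope against the level and 0.07 against the length.

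Single genes show the range. Among the 215 genes with a mean of at least 10 FPKM in the 8 other diploid groups, the highest slope as deposited was that of Zm00004b031637 (chromosome 9, 8885889 to 8890503). It was at 251 FPKM in trisomy 6L+trisomy 9S, 391 in monosomy 6L+trisomy 9S, 36.4 in trisomy 6L+monosomy 9S and 45.5 in monosomy 6L+monosomy 9S, against 141 in the diploid controls of the pair. The 5 groups stood in the order of the copies without overlap, and the 8 other diploid groups ran from 74.9 to 166 FPKM, between the trisomic and the monosomic means. In the divided values its ratios were 1.94 and 2.97 in the trisomies and 0.233 and 0.278 in the monosomies. Over the 29 combinations with 2 copies of 9S they ran from 0.196 to 1.79. Ratios as low as the monosomic ones thus also occurred without a change of 9S. The slope of Zm00004b031637 was 1.86 ± 0.30 (SE, limma adjusted p = 0.000144), a point estimate above a full dosage effect. This gene and those with the next highest and the lowest slopes were picked by slope. Their SE and p-values come from the same fit.

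The next highest was Zm00004b031488 (chromosome 9, 2039558 to 2041943), at 47.4 and 45.9 FPKM in the trisomies with 3 and 1 copies of 6L and 6.61 and 10.4 FPKM in the corresponding monosomies, against 37.0 FPKM in the diploid controls of the pair. Its monosomic means lay below all 9 diploid groups, but the trisomic means did not lie above the 8 other diploid groups, which ran from 12.4 to 53.4 FPKM. Its divided ratios were 1.39 and 1.33 in the trisomies and 0.161 and 0.242 in the monosomies. Over the 29 combinations with 2 copies of 9S they ran from 0.182 to 12.2. The slope was 1.61 ± 0.57 (SE, limma adjusted p = 0.05003), just short of the threshold.

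The 2 lowest slopes at this level were those of Zm00004b032352 and Zm00004b032441. Zm00004b032352 (chromosome 9, 43539207 to 43542031) was at 33.9 FPKM in trisomy 6L+trisomy 9S, 1.64 in monosomy 6L+trisomy 9S, 48.3 in trisomy 6L+monosomy 9S and 38.1 in monosomy 6L+monosomy 9S, against 40.2 in the diploid controls of the pair. A single low mean, that of the combination of 2 plants, set it apart, and in the 8 other diploid groups the gene ranged from 7.57 to 50.2 FPKM. The divided ratio of this gene was 0.0438 in monosomy 6L+trisomy 9S, and ran from 0.101 to 18.3 over the 29 combinations with 2 copies of 9S. Its slope of -1.49 ± 0.80 (SE) had a limma adjusted p of 0.184. Zm00004b032441 (chromosome 9, 49074513 to 49074864) was at 9.66 and 5.86 FPKM in the trisomies and 14.0 and 14.8 FPKM in the monosomies, against 13.7 FPKM in the diploid controls of the pair. Its trisomic means lay below all 9 diploid groups and its slope was -0.55 ± 0.26 (SE, limma adjusted p = 0.122). Its divided ratios of 0.766 and 0.457 in the trisomies lay within the range of the 29 combinations with 2 copies of 9S, 0.329 to 1.45.

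The most highly expressed 9S gene (chromosome 9, 29249371 to 29252900) was at 2212 FPKM in trisomy 6L+trisomy 9S, 1475 in monosomy 6L+trisomy 9S, 361 in trisomy 6L+monosomy 9S and 367 in monosomy 6L+monosomy 9S, against 1254 in the diploid controls of the pair. The 8 other diploid groups ran from 551 to 1098 FPKM, all between the trisomic and the monosomic means. The divided ratios of this gene were 1.92 and 1.26 in the trisomies and 0.260 and 0.252 in the monosomies. Over the 29 combinations with 2 copies of 9S they ran from 0.517 to 2.68, past the trisomic but not the monosomic ratios. Its slope was 1.48 ± 0.22 (SE, limma adjusted p = 6.4e-05). The pair of genes called lower as deposited had means of 4.57 and 2.80 FPKM and slopes of -0.50 ± 0.18 and -0.71 ± 0.21 (SE), and neither was called after division by the *trans* median (limma adjusted p = 0.197 and 0.0756). They were chosen after their values were seen.

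**Figure D4:**
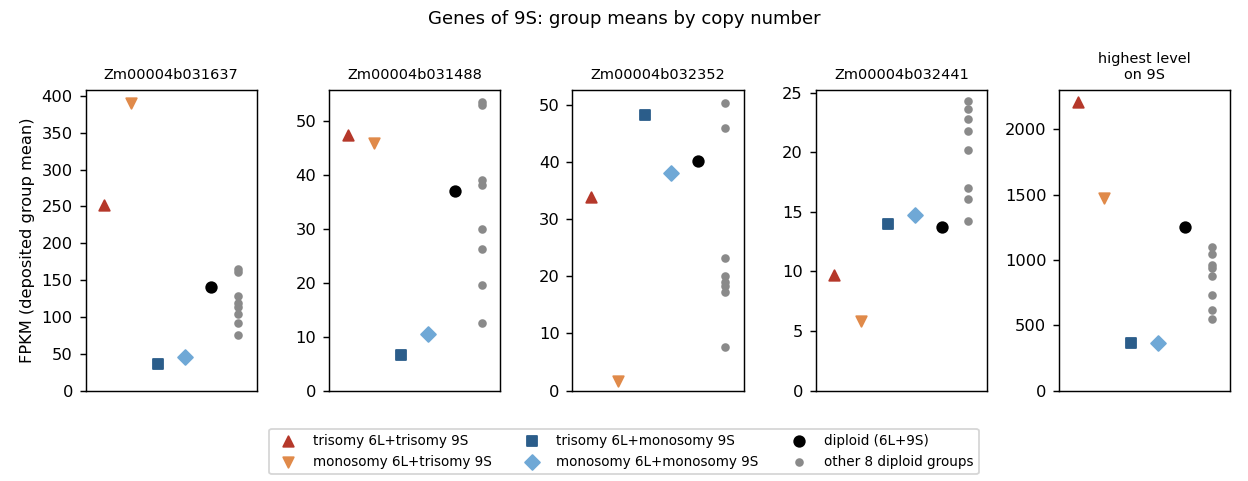
Deposited group means in FPKM of the 4 named 9S genes and of the most highly expressed 9S gene. Coloured markers are the 4 combinations in which 9S varied, the black circle is the diploid control of the pair and grey points are the 8 other diploid groups, and each panel has its own axis from 0. In the panels of Zm00004b031637, Zm00004b031488 and the most highly expressed gene both monosomic means are the lowest of all, and in the other panels the lowest mean of the 6L+9S table is that of monosomy 6L+trisomy 9S.

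Where 9S was not varied, its genes stayed with the rest of the genome. Over the 29 combinations with 2 copies of 9S their median deposited ratio ran between 0.857 and 1.16, and between 0.976 and 1.05 once divided by the *trans* median of each combination (median 1.00, SD 0.028 on the log2 scale). The trisomic and monosomic medians of the 6L+9S table thus lay far outside the range of the unvaried combinations. The interquartile range of the single 9S genes on the log2 scale was 0.40 in trisomy 6L+trisomy 9S, against 0.32 on chromosomes 2, 7, 8 and 10 of the same combination. It was 0.75 in monosomy 6L+trisomy 9S, against 0.63. It was 0.62 in both monosomies, against 0.63 in trisomy 6L+monosomy 9S and 0.59 in monosomy 6L+monosomy 9S. In the unvaried combinations the range of the 9S genes ran from 0.31 to 1.11 with a median of 0.61.

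**Figure D5:**
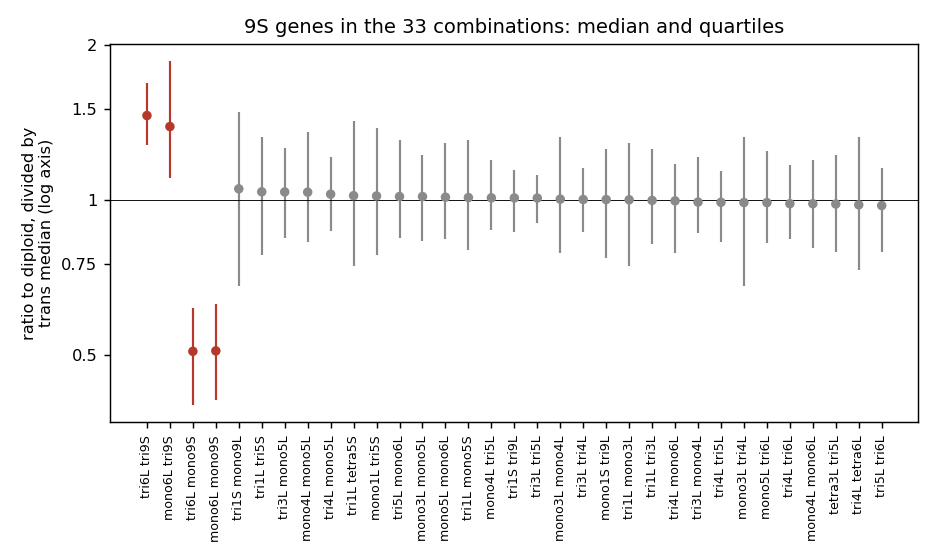
Median (point) and quartiles (bar) of the ratio of the 9S genes to the diploid, divided by the *trans* median, in the 33 combinations on a log axis. The 4 combinations with 3 or 1 copies of 9S (red) are at 1.46, 1.39, 0.509 and 0.510, and the 29 with 2 copies (grey, in descending order) lie between 0.976 and 1.05.

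The highest divided median of the unvaried combinations, 1.05, and their widest interquartile range, 1.11, were both those of trisomy 1S+monosomy 9L, in which the other arm of the chromosome was missing a copy. The study's sample list notes the leaf mid-rib for both plants of this combination, so tissue and aneuploidy cannot be told apart there. On 9L copies the 9S genes had a median slope of 0.08 (quartiles -0.17 and 0.40), and 16 were called higher and 4 lower with limma, against 6.18% and 1.12% of all genes, which include the genes of 9L. After division by the *trans* median 8 were called higher and 7 lower, against 4.87% and 1.75% of all genes. Without trisomy 1S+monosomy 9L 0 of the 440 were called in either direction with limma, against 0.272% of all genes higher and 0.016% lower. At an unadjusted p below 0.05 there were 5 higher and 6 lower, against 2.7% and 1.46% of all genes. The mean of monosomy 1S+trisomy 9L may include 1 plant whose karyotype record and title name different combinations, and without that group 35 of the 9S genes were called higher and 9 lower, against 10.6% and 2.12% of all genes.

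The diploid controls of 6L+9S were checked, since all 4 ratios rest on them. The 9S genes lay 0.14 below their mean over the 9 diploid groups on the log2 scale (median), and the genes of chromosomes 2, 7, 8 and 10 lay 0.13 below theirs. Each was the largest deviation among the 9 groups. The difference between these medians was -0.02. Over the 9 diploid groups this difference ran from -0.04 to 0.04, and no group was an outlier by Dixon's test, although the tables were normalised separately. The 6L+9S controls were the farthest of the 9 groups from the mean in 85 of the 9S genes (19.3%), against 18.2% of the genes of chromosomes 2, 7, 8 and 10. The gene of the photosystem II reaction centre W protein, a leaf gene that is not on 9S, was at 601 to 1465 FPKM in the 9 diploid groups, with the highest value in those of 6L+9S.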

How the data were processed

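Leaf RNA libraries (rRNA-depleted) were made from 137 listed plants, of which 1 could not be assigned to a group. Reads were trimmed by the authors (fastp), cleared of organelle sequence and aligned to W22 (STAR), and Cuffdiff set every combination against its own controls (versions not given in the sources used here). The deposited tables hold 1 FPKM mean per group and gene for 41448 genes (1 locus with no identifier was left out), with the authors' fold changes, test statistics, p-values, q-values and calls, which were not used. Without counts or values per plant, no depth, counting error or SD between plants could be given. The p-values test a slope of 0. The error they use is the departure of group means from additive effects of the arms, not the spread between plants.

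Ratios are of group means, without a pseudocount. Genes at 0 in the diploid mean have no ratio. The *trans* median is over genes of at least 1 FPKM on chromosomes 1 to 10 that carry neither arm of the pair. Slopes were fitted with limma 3.58.1 (R 4.3.3) on log2(FPKM + 0.1), which understates changes of low genes, with 24 residual degrees of freedom, two-sided tests and Benjamini-Hochberg adjustment over all 18757 genes. Data were simulated for the slope on 9S copies in 18757 genes, with residuals drawn independently. Slopes of 1 were given to 100 genes, of 0.5 to 50 and of -0.5 to 50. Of these, 68%, 30% and 28% were recovered, and 7.62% of the calls were false. In the data the fit called 531 genes higher and 3005 lower, many more than in this simulation, so the rates may not carry over. Descriptions used Python 3.11.15 with pandas 2.3.3, numpy 2.4.6 and scipy 1.17.1, and figures matplotlib 3.10.9.

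Named genes were the 2 steepest and the 2 lowest slopes at 10 FPKM or more in the 8 other diploid groups, the gene with the highest mean, and those next to each limit. None of the genes of the study's ddPCR lies among them. The genes, lists and tests were chosen with earlier results of these data known. The gene reference at hand describes the B73 line and matched 0 of the identifiers, so no sequence is shown. Genes that overlap or have near-identical copies cannot be separated here, since how Cuffdiff treated strand and multiply mapped reads is not given.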

Additional observations from a re-analysis of the deposited data

How the results depend on the processing

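No paired analysis was possible because the tables hold 1 mean per group and no values per replicate. Alternatives that join the *trans* median with another change, and those without monosomy 1S+trisomy 9L, were chosen after seeing the data. Division by the *trans* median moved the median ratios of the 9S genes to 1.46, 1.39, 0.509 and 0.510, the contrasts of 3 copies to 1 copy to 1.55 and 1.51, and the median slope to 0.93, with 0 genes called lower. A pseudocount of 1 FPKM moved the monosomic medians to 0.628 and 0.646 and left 1 gene called lower. Of 218 genes at 10 FPKM or more, 170 were called higher and 0 lower, a smaller number from fewer genes. With no filter the median slope over 765 genes was 0.51 and 1 was called lower, and on a linear scale of copies, which changes the unit of the slope, it was 1.19. Leaving out each group of 6L+9S in turn gave median slopes of 0.75 to 0.78 as deposited and of 0.93 to 0.96 divided, 192 to 294 calls higher as deposited and 249 to 312 divided, and 0 to 1 lower on both scales. In the divided values of the 5 groups of 6L+9S the median slope was 0.93, with 0 called lower. On 6L copies those 5 groups gave 0 calls higher and 1 lower, as deposited and divided. On 9L copies the calls were 8 higher and 7 lower when divided, 0 and 0 without trisomy 1S+monosomy 9L on both scales, and, without monosomy 1S+trisomy 9L, 35 and 9 as deposited (1992 and 397 of all genes) and 24 and 15 when divided (1486 and 664 of all genes). The slopes of the 5 genes with single values given kept their sign in every alternative run, and Zm00004b031488 passed the threshold in 6 of its 20 alternatives. The calls of 298 genes as deposited all remained after division by the *trans* median. With group means only, 24 residual degrees of freedom limit what could be called, and the cause of each difference between settings was not tested.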
